A study of Homo sapiens with 12 samples.

Results

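The DNA replication machinery is the set of proteins that mark origins, load and fire the replicative helicase, copy both strands and repackage the new DNA. Here it is given by 52 genes of the 64253 in the deposited count table, taken by gene name from a fixed list. All 52 names were found once each among the tested genes. The rule uses no measured value, but the genes were chosen with earlier results of these data known. They were measured by RNA-seq in JEKO-1, an established human mantle cell lymphoma line, after 48 h. Of the 4 groups of 3 libraries, the combination received KPT-330 and choline salicylate (CS). The other groups received KPT-330, CS, or DMSO as the control. KPT-330 (selinexor) inhibits the nuclear export receptor XPO1 and was dissolved in DMSO. CS is a salicylate salt and was diluted in PBS. No group of PBS alone was analysed here. The drug concentrations are not given for these libraries, and the labels do not say if replicates were separate cultures. P-values thus measure the spread between libraries, which may be technical.

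As background, replication starts in 2 steps that cells keep apart. In G1 phase the origin recognition complex (ORC), with CDC6 and CDT1, loads the MCM2-7 ring around DNA, and geminin (GMNN) blocks CDT1 once S phase has begun. In S phase the kinases CDC7-DBF4 and CDK turn the loaded rings into the CMG helicase (CDC45, MCM2-7 and GINS). Polymerase alpha-primase then makes primers, polymerase epsilon and polymerase delta extend the leading and lagging strands, PCNA holds them on DNA, and FEN1 and LIG1 join the Okazaki fragments. Many of these genes are targets of E2F factors and peak at the start of S phase. Mantle cell lymphoma carries high cyclin D1, which acts upstream of E2F.

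Total counts were 35325563 to 59490178 per library, and the lowest count of any of the 52 genes in any library was 195 reads. Levels are in CPM, the count scaled to the TMM-adjusted library size, and changes as edgeR log2 fold changes ± SE with 8 residual degrees of freedom. A change was called at an adjusted p of 0.05 or less over all 19460 genes tested. The biological coefficient of variation was 10.8% in KPT-330+CS, 2.88% in KPT-330, 11.9% in CS and 15.5% in DMSO. Counts also leaned towards GC-rich or GC-poor genes to a degree that varied between libraries. Per 10 points of GC content, the log2 count slope was 0.135, 0.027 and -0.160 in KPT-330+CS, 0.215, 0.206 and 0.242 in KPT-330, -0.243, -0.108 and 0.064 in CS, and 0.093, -0.138 and -0.334 in DMSO. Of 8 B cell and mantle cell lymphoma markers, 7 exceeded a mean of 20 CPM in every group, CD5 being the exception. Of 25 markers of other cell types, 24 stayed under 5 CPM in every group, the exception being PECAM1 at 37.3 ± 0.499 CPM in KPT-330+CS, 15.6 ± 0.955 CPM in KPT-330, 26.7 ± 0.862 CPM in CS, and 20.8 ± 0.620 CPM in DMSO.

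With both drugs, most of the replication machinery was lower than with DMSO. Of the 52 genes, 44 fell and 1 rose, against 26.2% and 29.3% of all tested genes that were called lower and higher. The median log2 fold change of the 52 genes was -0.61, and that of all tested genes was 0.04. Changes were moderate: 8 genes fell by more than 1 on the log2 scale, and none passed the study's own limit of an absolute log2 fold change over 2, which 4.36% of tested genes passed. The lowest were CDC45, CDC25A, MCM10, TICRR, ORC1, GINS1, GMNN and POLA2, followed by PCNA at -0.998 ± 0.05. In 38 of the 52 genes all 3 KPT-330+CS libraries lay below the other 9 libraries, which held for 12.1% of tested genes. The exceptions were ORC2, ORC4, ORC5, ORC6, MCM2, RECQL4, PRIM1, PRIM2, POLD1, POLD2, RFC1, RPA1, RPA3 and LIG1. In a bulk sample, fewer cells in S phase and less of each RNA per cell cannot be told apart.

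**Figure D1:**
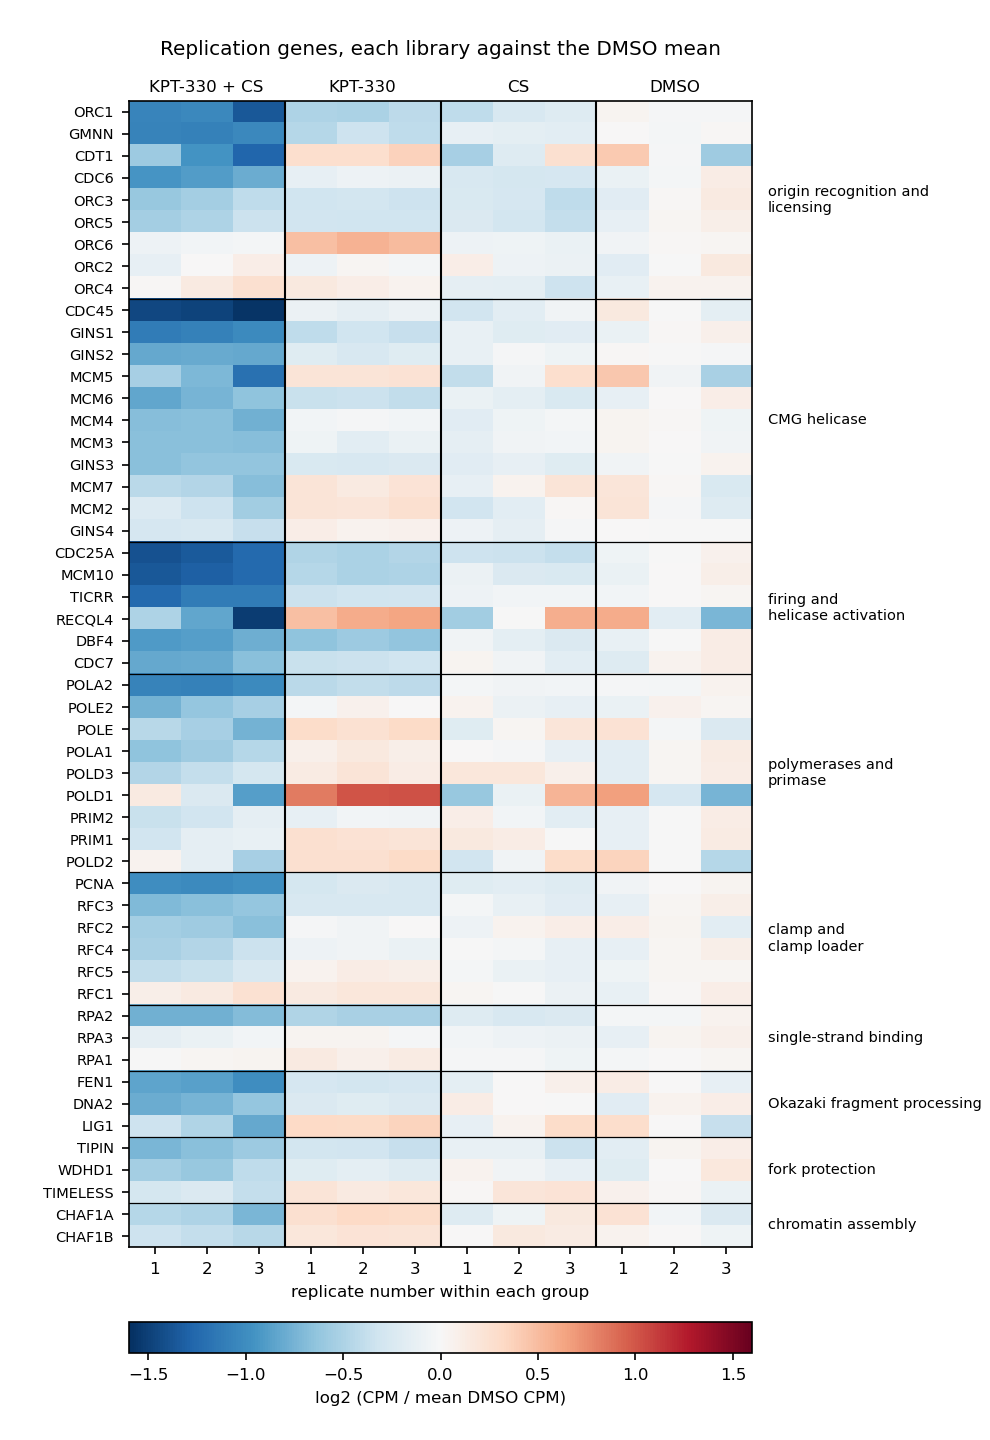
Level of each of the 52 genes (rows, ordered by role) in each of the 12 libraries (columns, by group), as log2 of its CPM over the mean DMSO CPM of that gene, where blue is lower and red is higher. The KPT-330+CS columns are the lowest in 38 of the 52 rows, and 44 of the 52 genes were called lower than in DMSO.

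Leaving out single libraries moved the count of lower genes between 40 and 44 of 52, but it ended the call of several genes. Some were rich in GC, such as RECQL4 (65.2%), and others poor in it, namely PRIM1 (41.4%), PRIM2 (39.7%) and RFC1 (41.5%). RECQL4 lost its call without KPT-330+CS replicate 3 (-0.65), KPT-330+CS replicate 2, CS replicate 2, DMSO replicate 2 or DMSO replicate 1 (-0.48). CDT1 (-0.65), LIG1 (-0.36), MCM2 (-0.25) and MCM5 (-0.53) lost it without DMSO replicate 1, and MCM2 also without KPT-330+CS replicate 3 (-0.27). PRIM1 and PRIM2 lost it without DMSO replicate 3 (-0.095 and -0.18) and without either of KPT-330+CS replicates 1 and 2. PRIM1 lost it as well without CS replicate 2, DMSO replicate 2 or any of the KPT-330 libraries. RFC1, the gene that rose, kept its call without CS replicate 3, DMSO replicate 3 or KPT-330+CS replicate 1 and lost it without any of the other 9 libraries.

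The promoters of the genes at both ends of this comparison are shown because replication genes are textbook targets of E2F. CDC25A and MCM10 followed CDC45 among the genes that fell furthest with both drugs, and RFC1 was the one gene that rose. The CDC45 window, which lies wholly inside the annotated span of that gene, is not shown. It held 4 CCAAT matches and no match to the E2F-type letters searched. It did hold ttggcgg, which differs from the searched TTGGCGC in its last letter. The annotated spans of MCM10 and RFC1 reach into the last bases of their windows. The sequences are the 250 bases before the first RefSeq start of each gene on GRCh38.p14, with letters of an E2F-type or CCAAT match in capitals. CDC25A lies at chr3:48188418-48188667 on the minus strand, MCM10 at chr10:13161308-13161557 on the plus strand and RFC1 at chr4:39366363-39366612 on the minus strand.
CDC25A: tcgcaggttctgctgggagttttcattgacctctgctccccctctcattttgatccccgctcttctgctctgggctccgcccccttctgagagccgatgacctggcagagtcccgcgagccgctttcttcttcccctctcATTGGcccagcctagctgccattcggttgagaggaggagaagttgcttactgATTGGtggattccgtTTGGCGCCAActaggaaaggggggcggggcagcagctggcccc
MCM10: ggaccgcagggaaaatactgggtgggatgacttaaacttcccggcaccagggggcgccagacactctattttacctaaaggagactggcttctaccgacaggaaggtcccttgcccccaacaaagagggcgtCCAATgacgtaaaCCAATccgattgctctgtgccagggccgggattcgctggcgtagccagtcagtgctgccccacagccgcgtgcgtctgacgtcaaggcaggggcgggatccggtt
RFC1: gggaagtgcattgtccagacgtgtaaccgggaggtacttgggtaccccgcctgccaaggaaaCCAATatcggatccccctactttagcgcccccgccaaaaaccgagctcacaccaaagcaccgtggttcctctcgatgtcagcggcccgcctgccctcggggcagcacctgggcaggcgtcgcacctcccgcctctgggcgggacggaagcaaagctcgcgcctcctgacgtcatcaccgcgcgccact
The CDC25A promoter held a pair of overlapping E2F-type matches, 43 and 40 bases before the start, and CCAAT letters 110 and 58 bases before it. The MCM10 promoter held CCAAT letters 118 and 105 bases before the start and no E2F-type match, and the RFC1 promoter held 1 CCAAT match, 188 bases before the start. Over the 44 genes with an entry, 19 (43.2%) held an E2F-type match, against 11.0% of 27305 promoters of the same length. They were 18 of the 37 genes with an entry that fell with both drugs and 1 of the 7 that did not. CCAAT was in 25 of the 44 promoters (56.8%), against 33.0% of all promoters. It was in 20 of the 37 that fell and 5 of the 7 that did not, a larger part of those that did not fall. With only 7 such genes, neither split was tested. The CHR type, a motif of genes of later cycle phases, was in 1 (2.27%), that of MCM6, against 14.6%. The letters searched on both strands were TTGGCGC or TTGCCGC or TTCGCGC or TTCCCGC for the E2F type, TTTGAA or TTCGAA for the CHR type, and CCAAT. A match describes these letters and is not a bound site. Related letters were not searched, so the lack of a match does not show that a promoter has no E2F site.

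Among the 9 licensing genes, the loaders CDC6 and CDT1 and their inhibitor GMNN fell with both drugs, and 3 of the 6 ORC subunits did too. ORC1, the ORC subunit whose level follows the cell cycle in human cells, had 30.5, 31.0 and 24.7 CPM in KPT-330+CS, 45.0, 44.6 and 47.6 CPM in KPT-330, 47.8, 53.2 and 54.8 CPM in CS, and 65.5, 62.5 and 62.4 CPM in DMSO. Its 4 groups did not overlap, with KPT-330+CS lowest and DMSO highest, and the change with both drugs was -1.15 ± 0.08 (edgeR adjusted p = 9.6e-08). ORC1 fell by less with KPT-330 (-0.47 ± 0.08) and with CS (-0.29 ± 0.08). CDC6, the ATPase that brings the MCM ring to ORC, had 52.3, 53.8 and 57.7 CPM in KPT-330+CS, 91.4, 95.0 and 94.2 CPM in KPT-330, 83.8, 82.5 and 82.9 CPM in CS, and 93.1, 98.4 and 109 CPM in DMSO. Its KPT-330+CS libraries lay below all others, whereas KPT-330 and DMSO overlapped, and the log2 fold change with both drugs was -0.88 ± 0.06 (edgeR adjusted p = 6.5e-08).

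CDT1, the partner of CDC6 in MCM loading, had 12.5, 9.68 and 7.81 CPM in KPT-330+CS, 22.5, 22.6 and 24.2 CPM in KPT-330, 13.0, 16.3 and 22.3 CPM in CS, and 25.1, 18.5 and 12.7 CPM in DMSO. The highest KPT-330+CS library lay just under the lowest CS and DMSO libraries, both groups ranging widely, and the log2 fold change against DMSO was -0.91 ± 0.24 (edgeR adjusted p = 0.00543). GMNN, the inhibitor of CDT1, had 47.5, 47.1 and 48.8 CPM in KPT-330+CS, 72.6, 79.4 and 75.0 CPM in KPT-330, 91.5, 89.6 and 89.1 CPM in CS, and 100.3, 97.6 and 101 CPM in DMSO. The spread within each group was small, the groups did not overlap, and the log2 fold change of GMNN was -1.06 ± 0.05 with both drugs and -0.40 ± 0.05 with KPT-330 (edgeR adjusted p = 1.5e-09 and 2.08e-05). The loader and its inhibitor were both lower with the combination.

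ORC6, the smallest ORC subunit, went the other way with KPT-330 alone. The gene (ENSG00000091651, chromosome 16, 46689643 to 46698394 of hg38) had 154, 158 and 159 CPM in KPT-330+CS, 228, 239.9 and 231 CPM in KPT-330, 154, 156 and 152 CPM in CS, and 157, 165 and 167 CPM in DMSO. The KPT-330 libraries stood above the other 9, with a log2 fold change of 0.52 ± 0.04 against DMSO (edgeR adjusted p = 1.13e-06). KPT-330+CS was near DMSO (-0.051 ± 0.04, adjusted p = 0.361 by edgeR), and with scaling by library size alone its value was 0.13 and called higher. ORC3 and ORC5, core subunits, fell with both drugs (-0.51 ± 0.08 and -0.46 ± 0.07). ORC2 (-0.0035 ± 0.09) and ORC4 (0.14 ± 0.08) were not called, and ORC2 was called higher (0.10) after a GC correction over all libraries.

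All 11 subunits of the CMG helicase fell with both drugs, with a median log2 fold change of -0.71. CDC45, a limiting factor of origin firing, had the lowest log2 fold change of the 52 genes. The gene (ENSG00000093009, chromosome 22, 19479459 to 19520612 of hg38) had 42.5, 41.6 and 39.4 CPM in KPT-330+CS, 109, 105 and 109 CPM in KPT-330, 93.8, 104 and 112 CPM in CS, and 129, 116 and 104 CPM in DMSO. KPT-330+CS stood well below the other 9 libraries, which overlapped one another, and the fold against DMSO was 0.353 (log2 -1.50 ± 0.08, edgeR adjusted p = 5.48e-09). Neither KPT-330 (-0.11 ± 0.08) nor CS (-0.18 ± 0.08) was called alone.

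The MCM ring subunits fell by less than CDC45. MCM6, a ring subunit, had 227, 242 and 259 CPM in KPT-330+CS, 315, 318 and 308 CPM in KPT-330, 377, 363 and 341 CPM in CS, and 369, 407 and 437 CPM in DMSO. KPT-330 lay below CS and DMSO, and KPT-330+CS lower still (-0.74 ± 0.07, edgeR adjusted p = 9.55e-07). MCM2, a subunit that CDC7 phosphorylates, had 234, 216 and 185 CPM in KPT-330+CS, 313, 312 and 324 CPM in KPT-330, 219.6, 241 and 276 CPM in CS, and 312, 268 and 235 CPM in DMSO. Its KPT-330+CS range ended just under the lowest DMSO library and overlapped CS, and the log2 fold change against DMSO was -0.36 ± 0.11 (edgeR adjusted p = 0.0126). MCM3, MCM4, MCM5 and MCM7, the other ring subunits, were at -0.67 ± 0.05, -0.71 ± 0.05, -0.79 ± 0.22 and -0.52 ± 0.11. Of the GINS complex, which ties CDC45 to the ring, GINS1 was at -1.07 ± 0.06, GINS2 at -0.82 ± 0.05, GINS3 at -0.64 ± 0.05 and GINS4 at -0.30 ± 0.06.

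The 6 genes of origin firing and helicase activation had the lowest median with both drugs, -1.03, and all 6 fell. MCM10, which activates the assembled helicase, had 73.8, 76.7 and 79.9 CPM in KPT-330+CS, 138, 133 and 135 CPM in KPT-330, 177, 162 and 159 CPM in CS, and 175, 190.4 and 201 CPM in DMSO. KPT-330 lay below CS and DMSO, and KPT-330+CS below KPT-330, at -1.30 ± 0.06 against DMSO (edgeR adjusted p = 2.05e-09). CDC25A, the phosphatase that removes inhibitory phosphate from CDK2 (ENSG00000164045, chromosome 3, 48157146 to 48188402 of hg38), had 68.2, 70.5 and 75.3 CPM in KPT-330+CS, 128, 126 and 129 CPM in KPT-330, 142, 141 and 138 CPM in CS, and 171, 178 and 188 CPM in DMSO. Its 4 groups were separate and in the order KPT-330+CS, KPT-330, CS, DMSO from low to high, with log2 fold changes of -1.33 ± 0.05, -0.49 ± 0.05 and -0.35 ± 0.05 for the 3 treatments against DMSO (edgeR adjusted p = 4.11e-10, 6.59e-06 and 0.00119).

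DBF4, which activates the kinase CDC7, had 39.4, 40.1 and 42.7 CPM in KPT-330+CS, 47.4, 49.3 and 47.6 CPM in KPT-330, 71.0, 66.0 and 62.7 CPM in CS, and 67.9, 73.3 and 79.9 CPM in DMSO. KPT-330+CS was at -0.86 ± 0.07 and KPT-330 at -0.62 ± 0.07 against DMSO, and KPT-330+CS against KPT-330 was at -0.24 ± 0.07 (edgeR adjusted p = 0.0148), a call lost without KPT-330 replicate 2 or KPT-330+CS replicate 2. CDC7 itself fell with both drugs (-0.76 ± 0.08). TICRR (treslin), which brings CDC45 to the ring under CDK control, fell (-1.16 ± 0.05). RECQL4, a helicase needed for initiation, was the least abundant gene per length in DMSO. It had 7.06, 5.55 and 3.44 CPM in KPT-330+CS, 13.8, 15.0 and 15.3 CPM in KPT-330, 6.72, 9.82 and 14.8 CPM in CS, and 14.9, 8.83 and 5.99 CPM in DMSO. KPT-330+CS overlapped CS and DMSO, and its log2 fold change of -0.90 ± 0.34 had the widest SE of the calls against DMSO (edgeR adjusted p = 0.0367).

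Of the 9 genes of polymerases and primase, 7 fell with both drugs, with a median of -0.37. POLA2, the regulatory subunit of polymerase alpha-primase, had 73.3, 72.4 and 75.7 CPM in KPT-330+CS, 114, 117 and 115 CPM in KPT-330, 151, 148 and 148 CPM in CS, and 151, 150.3 and 159 CPM in DMSO. CS and DMSO overlapped, KPT-330 lay lower, and KPT-330+CS was at 0.48 of DMSO (log2 -1.06 ± 0.05, edgeR adjusted p = 8.15e-10). The other alpha-primase subunits moved less, with POLA1, the catalytic subunit, at -0.55 ± 0.07, and the primase subunits PRIM1 and PRIM2 at -0.19 ± 0.07 and -0.27 ± 0.08.

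POLE, the catalytic subunit of the leading-strand polymerase, had 89.7, 84.0 and 71.9 CPM in KPT-330+CS, 149, 145 and 151 CPM in KPT-330, 107, 125 and 139 CPM in CS, and 143, 119 and 104 CPM in DMSO. The DMSO libraries spread across the CS range, and KPT-330+CS lay below all others at -0.57 ± 0.12 (edgeR adjusted p = 0.000966). Its partner POLE2 fell (-0.63 ± 0.08). POLD1, the catalytic subunit of polymerase delta, had 21.5, 16.5 and 10.5 CPM in KPT-330+CS, 34.6, 38.9 and 39.2 CPM in KPT-330, 12.8, 17.9 and 28.3 CPM in CS, and 30.5, 16.0 and 11.5 CPM in DMSO. The KPT-330 libraries were above the other 9, while KPT-330+CS, CS and DMSO overlapped fully. POLD1 was called higher with KPT-330 (0.95 ± 0.34, edgeR adjusted p = 0.0343), and the call was lost when any of DMSO replicates 2 and 3, CS replicate 2 and the 3 KPT-330 libraries was left out (0.69 without DMSO replicate 3). With both drugs neither POLD1 (-0.27 ± 0.34) nor the accessory subunit POLD2 (-0.19 ± 0.19) was called, and POLD3, a further accessory subunit, fell (-0.37 ± 0.07).

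The sliding clamp and 4 of the 5 clamp loader subunits fell with both drugs. PCNA, the clamp itself (ENSG00000132646, chromosome 20, 5114953 to 5126626 of hg38), was the most abundant of the 52 genes per length. It had 269.8, 267 and 273 CPM in KPT-330+CS, 442, 457 and 452 CPM in KPT-330, 472, 479.8 and 467 CPM in CS, and 520.2, 542 and 554 CPM in DMSO. The groups did not overlap, KPT-330+CS was at 0.501 of DMSO (log2 -0.998 ± 0.05, edgeR adjusted p = 1.31e-09), and KPT-330 and CS were at -0.26 ± 0.04 and -0.19 ± 0.04. RFC2, a small loader subunit, had 64.2, 63.2 and 59.0 CPM in KPT-330+CS, 92.8, 89.8 and 94.2 CPM in KPT-330, 88.8, 97.2 and 101 CPM in CS, and 101, 96.6 and 83.3 CPM in DMSO. KPT-330+CS was apart from the rest, which overlapped, and the log2 fold change was -0.59 ± 0.07 (edgeR adjusted p = 1.33e-05). RFC3, RFC4 and RFC5, the other small subunits, fell as well (-0.66 ± 0.06, -0.44 ± 0.07 and -0.33 ± 0.06).

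RFC1, the large loader subunit, was the exception. The gene (ENSG00000035928, chromosome 4, 39287456 to 39366375 of hg38) had 167, 171 and 184 CPM in KPT-330+CS, 172, 176 and 176 CPM in KPT-330, 159.5, 155 and 146 CPM in CS, and 143, 157 and 167 CPM in DMSO. KPT-330+CS overlapped both KPT-330 and DMSO, and the rise of 0.16 ± 0.06 was close to the threshold (edgeR adjusted p = 0.0433). It was 0.13 and not called by DESeq2 (adjusted p = 0.229).

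Of the RPA trimer, which coats single-stranded DNA, only the middle subunit RPA2 was called with both drugs. RPA2 had 83.7, 83.0 and 87.6 CPM in KPT-330+CS, 101, 98.9 and 98.8 CPM in KPT-330, 124, 118 and 121 CPM in CS, and 139, 139 and 147 CPM in DMSO. Its groups did not overlap, with log2 fold changes of -0.74 ± 0.05 in KPT-330+CS and -0.51 ± 0.05 in KPT-330 (edgeR adjusted p = 2.52e-08 and 1.87e-06). The large subunit RPA1 was at 0.023 ± 0.04 and the small subunit RPA3 at -0.10 ± 0.06, with adjusted p of 0.695 and 0.177 by edgeR.

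The 3 genes of Okazaki fragment processing fell together. FEN1, the flap endonuclease, had 205, 202 and 184 CPM in KPT-330+CS, 306, 299 and 306 CPM in KPT-330, 330.2, 371 and 389 CPM in CS, and 397, 368 and 337 CPM in DMSO. KPT-330 lay below CS and DMSO, and KPT-330+CS below KPT-330, at -0.90 ± 0.07 against DMSO (edgeR adjusted p = 2.75e-07). LIG1, the ligase that seals the nicks, had 32.3, 29.1 and 23.1 CPM in KPT-330+CS, 50.8, 50.2 and 51.7 CPM in KPT-330, 37.0, 42.3 and 49.8 CPM in CS, and 49.5, 40.9 and 31.4 CPM in DMSO. The KPT-330+CS and DMSO libraries overlapped at their ends, with a log2 fold change of -0.53 ± 0.16 (edgeR adjusted p = 0.0108). DNA2, the nuclease-helicase for long flaps, fell (-0.72 ± 0.07).

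Fork protection and chromatin assembly genes fell as well. TIPIN, which with TIMELESS keeps helicase and polymerase coupled, had 42.5, 44.5 and 47.2 CPM in KPT-330+CS, 57.6, 57.3 and 54.7 CPM in KPT-330, 65.3, 65.1 and 55.6 CPM in CS, and 63.2, 72.6 and 76.5 CPM in DMSO. KPT-330+CS lay below the rest, at -0.66 ± 0.08 (edgeR adjusted p = 1.23e-05). TIMELESS had 170.5, 176 and 159.5 CPM in KPT-330+CS, 239.7, 229 and 235 CPM in KPT-330, 209, 238 and 241 CPM in CS, and 218, 211 and 193 CPM in DMSO. It was higher with KPT-330 (0.18 ± 0.07) and lower with both drugs (-0.30 ± 0.07, edgeR adjusted p = 0.00168), and the call with KPT-330 was lost without CS replicate 2, DMSO replicate 2 or 3 or any of the KPT-330 libraries (0.14 without DMSO replicate 3). WDHD1 (AND-1), which links polymerase alpha to the helicase, fell (-0.52 ± 0.08). CHAF1A, the large subunit of the chromatin assembly factor that deposits histones behind the fork, had 52.1, 50.8 and 43.1 CPM in KPT-330+CS, 85.5, 88.8 and 87.6 CPM in KPT-330, 62.0, 68.3 and 79.5 CPM in CS, and 84.0, 69.3 and 61.0 CPM in DMSO. KPT-330+CS lay below all others, at -0.55 ± 0.11 against DMSO (edgeR adjusted p = 0.00101), and its partner CHAF1B fell (-0.38 ± 0.06).

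With KPT-330 alone, more of the 52 genes fell than rose. Of the 52, 20 (38.5%) fell and 8 (15.4%) rose, against 23.8% and 24.7% of all tested genes. The rising share was thus below that of all genes. The median log2 fold change was -0.06 beside 0.04 for all genes. The genes that fell furthest were DBF4 (-0.62 ± 0.07), RPA2 (-0.51 ± 0.05), CDC25A (-0.49 ± 0.05), MCM10 (-0.48 ± 0.06), ORC1 (-0.47 ± 0.08), POLA2 (-0.41 ± 0.04), GMNN (-0.40 ± 0.05) and MCM6 (-0.37 ± 0.07). The other genes called lower were GINS1, GINS2, GINS3, CDC7, TICRR, TIPIN, ORC3, ORC5, FEN1, PCNA, RFC3 and DNA2, between -0.36 ± 0.06 for GINS1 and -0.22 ± 0.07 for DNA2. Those that rose were POLD1 (0.95 ± 0.34), ORC6 (0.52 ± 0.04), CHAF1A (0.29 ± 0.11), PRIM1 (0.23 ± 0.07), CHAF1B (0.20 ± 0.06), TIMELESS (0.18 ± 0.07), RFC1 (0.17 ± 0.06) and RPA1 (0.12 ± 0.04). In 10 genes, ORC6, GINS4, PRIM1, POLD1, POLE, RFC5, RPA1, LIG1, CHAF1A and CHAF1B, all 3 KPT-330 libraries lay above the other 9, against 9.36% of tested genes.

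The counts with KPT-330 depended on the scaling. Scaling by library size alone gave 17 higher and 13 lower, beside 6651 and 2905 of all tested genes, and moved the all-gene median to 0.20. DESeq2 size factors gave 4 higher and 21 lower, beside 4601 and 4834 of all tested genes. The count of higher genes was 2 without DMSO replicate 2 or KPT-330 replicate 1, 3 without CS replicate 2 or KPT-330 replicate 3, 4 without KPT-330 replicate 2 and 5 without KPT-330+CS replicate 2. ORC6 and CHAF1B kept their calls with any of these libraries left out. Of the lower genes, DNA2 lost its call without DMSO replicate 2 or 3 or any of the KPT-330 libraries (-0.15 without DMSO replicate 3). With any 1 library left out, the count of lower genes lay between 19 and 22.

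CS alone changed few of these genes. Of the 52, 7 fell and 0 rose (edgeR), against 5.13% and 3.76% of all tested genes. A fit of the CS and DMSO libraries only gave 1 lower, beside 90 lower and 159 higher of 17722 tested genes. At an unadjusted p under 0.05, 16 were lower and 1 higher, a threshold at which all tested genes were not counted. DESeq2 called 0 higher. The genes that fell were CDC25A (-0.35 ± 0.05), ORC5 (-0.30 ± 0.07), ORC3 (-0.30 ± 0.08), ORC1 (-0.29 ± 0.08), CDC6 (-0.27 ± 0.06), RPA2 (-0.23 ± 0.05) and PCNA (-0.19 ± 0.04). CDC25A was the one called in every alternative setting. The count of lower genes was 1 without CS replicate 2 or CS replicate 3. Leaving out a DMSO library gave 13 (replicate 1), 3 (replicate 2) or 2 (replicate 3). Among all tested genes, the lower count was 998 in the full fit, and 402 and 360 without CS replicates 2 and 3. It was 1792, 415 and 583 without DMSO replicates 1, 2 and 3. In 11 genes the 3 DMSO libraries lay above all 9 treated libraries (ORC1, ORC3, ORC5, GMNN, GINS1, GINS2, GINS3, CDC25A, TICRR, PCNA and RPA2), against 6.97% of tested genes.

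Adding CS to KPT-330 lowered most of the set. Against KPT-330, 43 of the 52 genes were lower in KPT-330+CS and 0 higher (edgeR), beside 17.9% and 19.7% of all tested genes, and the median was -0.57. At an unadjusted p under 0.05, 47 were lower and 0 higher, a threshold at which all tested genes were not counted. DESeq2 also called 0 higher. The lowest were RECQL4 (-1.46 ± 0.34), CDC45 (-1.39 ± 0.08), POLD1 (-1.22 ± 0.34), CDT1 (-1.21 ± 0.24), MCM5 (-1.01 ± 0.22), LIG1 (-0.86 ± 0.16), POLE (-0.86 ± 0.12) and CHAF1A (-0.84 ± 0.11). In DMSO, CS and KPT-330+CS, all of these were ordered across libraries as the libraries' GC slopes. Over the 52 genes, Pearson's r of this contrast with GC content was -0.703, and the part of GC content in this ranking was not tested. The 9 genes not called were ORC2, ORC3, ORC4, ORC5, PRIM2, POLD2, RFC1, RPA1 and RPA3. Without KPT-330+CS replicate 3, POLD1 lost its call at -0.98.

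Adding KPT-330 to CS gave a like picture. Against CS, 42 genes were lower in KPT-330+CS and 2 higher, beside 21.7% and 26.1% of all tested genes, with a median of -0.56. The lowest were CDC45 (-1.33 ± 0.08), MCM10 (-1.11 ± 0.06), TICRR (-1.10 ± 0.05), POLA2 (-1.01 ± 0.05), RECQL4 (-0.98 ± 0.34), CDC25A (-0.97 ± 0.05), GINS1 (-0.91 ± 0.06) and GMNN (-0.91 ± 0.05). ORC4 (0.35 ± 0.08) and RFC1 (0.18 ± 0.06) were higher. RECQL4 lost its call without CS replicate 2 or 3 or without KPT-330+CS replicate 2 or 3, and RFC1 without the same 4 libraries, RECQL4 being at -0.64 without CS replicate 3. CDT1 lost it without CS replicate 2 or 3 or KPT-330+CS replicate 3, MCM5 without CS replicate 2, PRIM2 without CS replicate 1 or 2 or KPT-330+CS replicate 1 or 2, and ORC3 without most libraries. In 40 genes KPT-330+CS was called lower than each of the other 3 groups, and these comparisons share the same KPT-330+CS libraries. The share of all tested genes with all 3 calls was not counted.

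The 2 single treatments differed from each other in part of the set, to an extent near that of all tested genes. Comparing CS with KPT-330, 12 genes (23.1%) were higher and 9 (17.3%) lower in CS, beside 20.2% and 22.6% of all tested genes. Those highest in CS were DBF4 (0.47 ± 0.07), POLA2 (0.37 ± 0.04), CDC7 (0.29 ± 0.08), MCM10 (0.29 ± 0.06), RPA2 (0.28 ± 0.05), TICRR (0.27 ± 0.05), FEN1 (0.26 ± 0.07) and DNA2 (0.26 ± 0.07). Among the called genes, those lowest in CS were POLD1 (-0.93 ± 0.34), ORC6 (-0.60 ± 0.05), MCM2 (-0.37 ± 0.11), CHAF1A (-0.32 ± 0.11), ORC4 (-0.32 ± 0.08), RFC1 (-0.19 ± 0.06), RFC5 (-0.18 ± 0.05) and CDC6 (-0.17 ± 0.06). The count of lower genes was 5 without CS replicate 1, 3 without CS replicate 2 and 4 without any of the KPT-330 libraries.

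**Figure D2:**
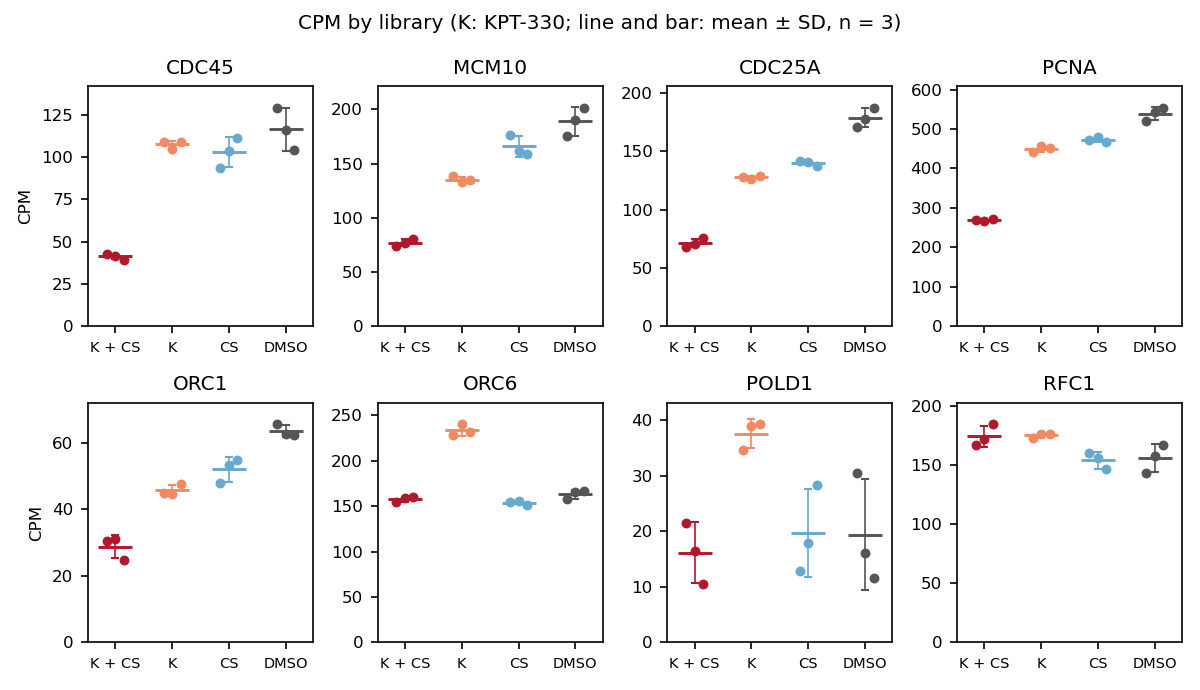
CPM in each library (points) with the mean and SD of the group (line and bar, n = 3) for 8 genes, with KPT-330+CS, KPT-330, CS and DMSO from left to right. CDC45 shows KPT-330+CS apart from 3 groups that overlap, CDC25A and PCNA show 4 separate groups, ORC6 and POLD1 are highest in KPT-330, and RFC1 shows overlapping groups.

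The effect of CS depended on whether KPT-330 was present. The interaction, the change from adding CS to KPT-330 minus the change from CS alone, was negative and called for 34 of the 52 genes and positive for 0 (edgeR), beside 6.62% and 8.04% of all tested genes. At an unadjusted p under 0.05, 39 were negative and 1 positive, a threshold at which all tested genes were not counted. DESeq2 called 0 positive. The median was -0.51 over the 52 genes and 0.01 over all genes. Among the called genes, the lowest were RECQL4 (-1.54 ± 0.47), CDC45 (-1.21 ± 0.11), CDT1 (-1.08 ± 0.33), LIG1 (-0.94 ± 0.22), POLE (-0.88 ± 0.17), CHAF1A (-0.81 ± 0.16), TICRR (-0.78 ± 0.07) and MCM7 (-0.76 ± 0.15). For CDC45 the adjusted p was 2.81e-05 and for RECQL4 it was 0.0427 (edgeR). Over the 52 genes, Pearson's r of the interaction with GC content was -0.728, and the part of GC content in this ranking was not tested.

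On the log2 scale, the sum of the changes with KPT-330 alone and CS alone had a median of -0.12 over the 52 genes, against -0.61 for the combination, and 47 of the 52 genes lay below their sum. Both the sum and the combination are set against the same DMSO libraries. The combination less the sum is the interaction value itself, so this restates the interaction and is no further result. The 47 include genes whose interaction was not called, and the share of all tested genes below their sum was not counted. Of the 44 genes lower with both drugs, 20 were also lower with KPT-330, 20 were not called with it and 4 were higher with it (PRIM1, TIMELESS, CHAF1A and CHAF1B). In 23 of the 44 neither drug alone gave a call of lower. The shares of all tested genes with these combinations of calls were not counted, so the counts only describe the 52 genes. The interaction calls of CDT1 and RECQL4 held without replicate 1 of KPT-330+CS, CS or DMSO and were lost without any of the other 9 libraries, with CDT1 at -0.86 and RECQL4 at -1.21 without CS replicate 3. Those of CDC7, RFC3 and RFC4 were lost without KPT-330+CS replicate 1 or 2, CS replicate 1 or 2, DMSO replicate 2 or any of the KPT-330 libraries. Those of GINS4 and ORC1 were lost without KPT-330+CS replicate 3, CS replicate 3, DMSO replicate 2 or any of the KPT-330 libraries, and that of ORC1 also without CS replicate 2 or DMSO replicate 3.

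**Figure D3:**
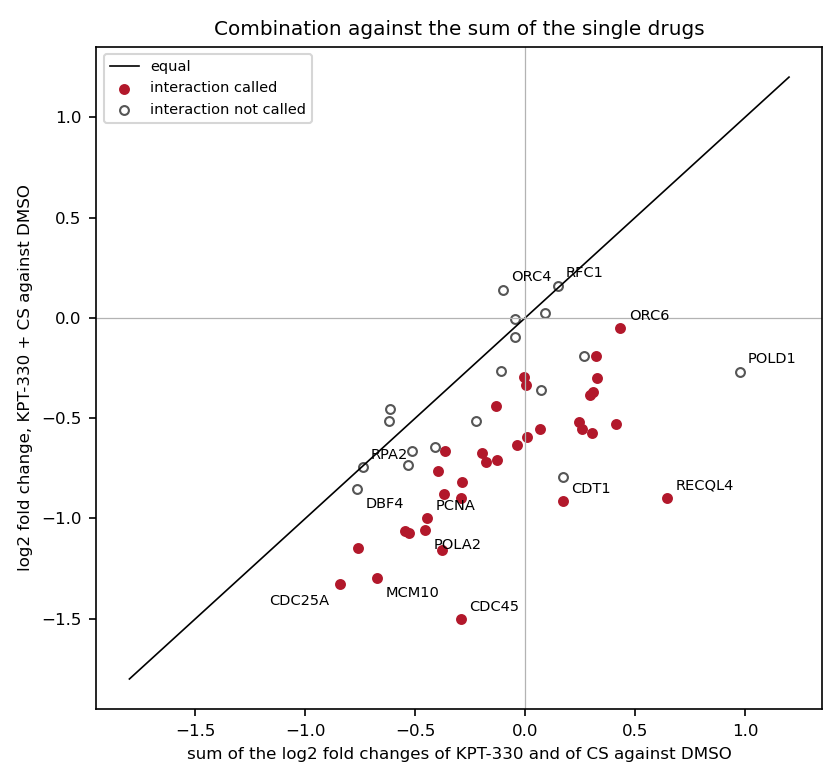
Log2 fold change with KPT-330+CS (vertical axis) against the sum of the log2 fold changes with KPT-330 alone and CS alone (horizontal axis) for each of the 52 genes, all relative to DMSO, with the diagonal marking equality. The vertical distance from the diagonal is the interaction value. Of the 52 points, 47 lie below the diagonal, called or not, CDC45 among the farthest.

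Between roles, the changes with both drugs were ordered as follows, as a description with no test between roles. Firing and helicase activation had a median of -1.03, Okazaki fragment processing -0.72, the CMG helicase -0.71, the clamp and its loader -0.52, fork protection -0.52, licensing -0.51, chromatin assembly -0.47, polymerases and primase -0.37, and single-strand binding -0.10. With KPT-330 alone the order was different, with firing lowest at -0.41, polymerases and primase at 0.16 and chromatin assembly at 0.24. For the interaction, chromatin assembly was at -0.75, Okazaki fragment processing at -0.61, polymerases and primase at -0.60, firing at -0.56 and the CMG helicase at -0.53, followed by licensing at -0.38, the clamp and its loader at -0.32, fork protection at -0.29 and single-strand binding at -0.05. Roles hold between 2 and 11 genes, and genes within a role ranged widely, as in licensing from ORC1 at -1.15 ± 0.08 to ORC4 at 0.14 ± 0.08.

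**Figure D4:**
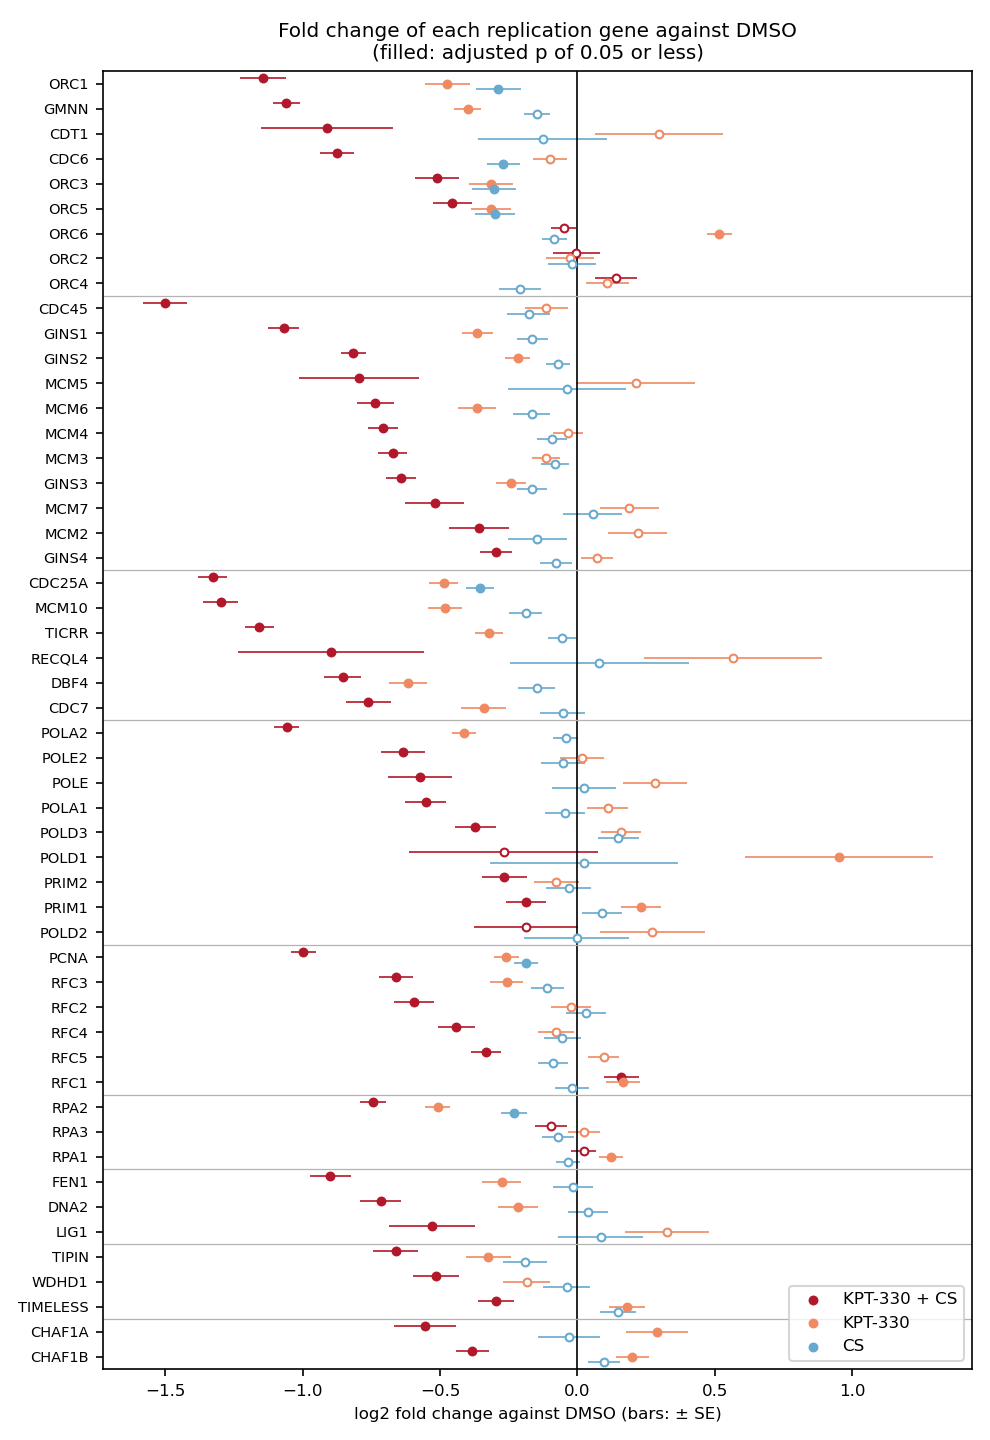
EdgeR log2 fold change ± SE of each of the 52 genes against DMSO, grouped by role, for KPT-330+CS, KPT-330 and CS, with filled points at an adjusted p of 0.05 or less. The KPT-330+CS points lie lowest in firing and helicase activation, where the median is -1.03, and are closest to 0 for ORC2, RPA1 and ORC6.

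Other replication genes, a list of 43 taken by function and not among the 52, were also mostly lower with both drugs. These 43 too were chosen with earlier results of these data known. With both drugs 29 fell and 3 rose, against 26.2% and 29.3% of all tested genes, with a median of -0.54. The lowest were TOP2A, the topoisomerase that untangles sister DNA (-1.73 ± 0.08), CLSPN, a fork checkpoint mediator (-1.73 ± 0.08), CCNA2, the S phase cyclin (-1.72 ± 0.09), and NASP, a histone chaperone (-0.97 ± 0.05). With KPT-330 16 fell and 6 rose, against 23.8% and 24.7% of all tested genes, led by TOP2A (-0.999 ± 0.08) and CCNA2 (-0.93 ± 0.09) among those lower. CCNE2, a cyclin of the G1 to S transition (0.98 ± 0.11), and RNASEH2A, a subunit of RNase H2 (0.81 ± 0.16), led those called higher. With CS 7 fell and 0 rose (edgeR), against 5.13% and 3.76% of all tested genes, the largest called changes being ASF1A (-0.46 ± 0.07), TOP1 (-0.38 ± 0.08), SUPT16H (-0.28 ± 0.07) and HAT1 (-0.28 ± 0.08). At an unadjusted p under 0.05, 2 of the 43 were higher and 11 lower, a threshold at which all tested genes were not counted.

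Against KPT-330, KPT-330+CS was lower in 26 of the 43 and higher in 1, beside 17.9% and 19.7% of all tested genes, with UHRF1 (-1.23 ± 0.15), RTEL1 (-1.22 ± 0.23), TONSL (-1.16 ± 0.27) and CHTF18 (-1.12 ± 0.39) furthest. Against CS, KPT-330+CS was lower in 29 and higher in 3, beside 21.7% and 26.1% of all tested genes, with TOP2A (-1.65 ± 0.08), CLSPN (-1.54 ± 0.08), CCNA2 (-1.45 ± 0.09) and DSCC1 (-0.93 ± 0.09) furthest. In CS against KPT-330, 10 were higher and 5 lower, beside 20.2% and 22.6% of all tested genes. Among the called genes TOP2A (0.92 ± 0.08) was highest and CCNE2 lowest, followed by UHRF1 (-0.70 ± 0.14) and RNASEH2A (-0.67 ± 0.16). The interaction was negative in 18 and positive in 0 (edgeR), beside 6.62% and 8.04% of all tested genes. Among the called genes UHRF1 (-0.99 ± 0.20), POLD4 (-0.96 ± 0.28), RNASEH2A (-0.93 ± 0.22) and CCNE2 (-0.84 ± 0.16) were furthest from 0. At an unadjusted p under 0.05, 3 of the 43 were positive and 21 negative, a threshold at which all tested genes were not counted.

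GC content moved with several of these values. In DMSO, CS and KPT-330+CS, 13 of the 52 genes were ordered across the 3 libraries exactly as the libraries' GC slopes, which 16.2% of tested genes were, and 20 were in the opposite order, which 14.6% were. The 13 were CDC45, CDT1, CHAF1A, FEN1, LIG1, MCM2, MCM5, MCM7, POLD1, POLD2, POLE, RECQL4 and RFC2. Across the 52 genes, Pearson's r between the GC content of a gene's transcripts and the log2 fold change was -0.176 (Spearman's rho -0.182) with both drugs and 0.528 (rho 0.433) with KPT-330. It was -0.703 (rho -0.65) for KPT-330+CS against KPT-330, and -0.728 (rho -0.645) for the interaction. These are correlations across genes that share the same libraries, so the genes are not independent points.

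After a GC correction over all libraries, 45 of the 52 genes were lower with both drugs, as were 5817 of the 19460 genes tested. In KPT-330+CS against KPT-330, 51 of the 52 were lower, as were 5066 of all genes. The interaction was negative in 46 of the 52, and in 2921 of all genes. With KPT-330 the corrected counts were 16 higher and 16 lower, beside 5876 and 4214 of all genes. CDT1 with KPT-330 was 0.30 ± 0.23 and not called as deposited, and -0.31 and called lower after correction. POLD1 with KPT-330 was 0.37 after correction and no longer called. The correction also takes out any difference between groups that runs along GC content, so the part of GC content in the results was not tested beyond these values.

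**Figure D5:**
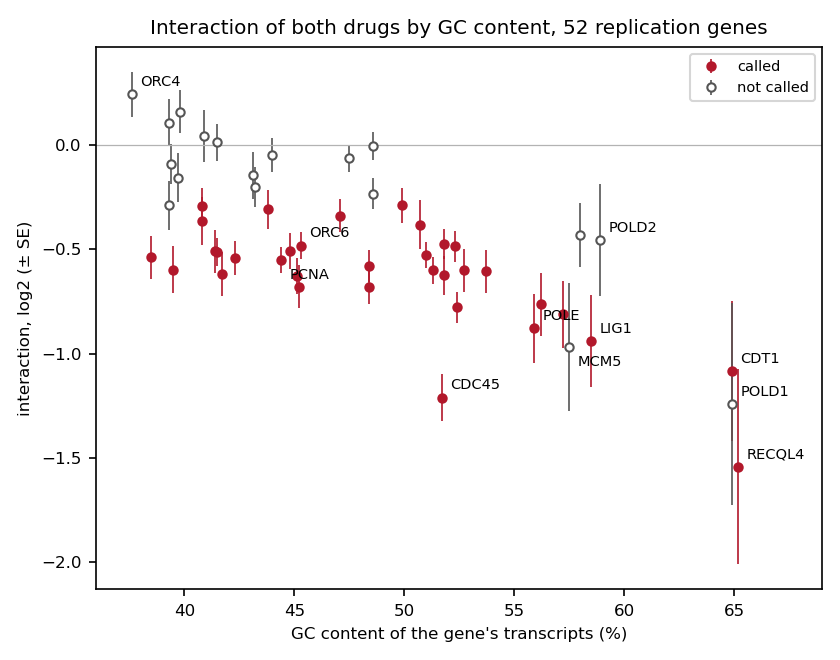
Interaction log2 value ± SE of each of the 52 genes (vertical axis) against the GC content of its transcripts in percent (horizontal axis), with called genes filled. RECQL4 at 65.2%, CDT1 and POLD1 at 64.9% lie lowest at the right, while CDC45 lies below genes of like GC content.

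Per length, the machinery spanned a wide range, given as RPKM (counts scaled by library size and by the authors' gene length, mean ± SD of 3 libraries). The most abundant gene in DMSO was PCNA at 183 ± 1.91 RPKM in KPT-330+CS and 366 ± 11.6 RPKM in DMSO. It was followed by MCM3 at 135 ± 0.806 RPKM in KPT-330+CS and 215 ± 8.30 RPKM in DMSO. MCM7 came next at 127 ± 11.7 RPKM in KPT-330+CS and 182 ± 27.0 RPKM in DMSO, where its SD reached those of both neighbours, MCM3 and FEN1. FEN1 was at 79.5 ± 4.55 RPKM in KPT-330+CS and 148 ± 12.2 RPKM in DMSO. At the low end were CDT1 at 3.00 ± 0.707 RPKM in KPT-330+CS and 5.63 ± 1.87 RPKM in DMSO, POLD1 at 3.32 ± 1.13 RPKM in KPT-330+CS and 3.99 ± 2.04 RPKM in DMSO, and RECQL4 at 1.26 ± 0.429 RPKM in KPT-330+CS and 2.34 ± 1.07 RPKM in DMSO, whose DMSO SDs overlap in neighbouring pairs. CDC45, the gene with the lowest log2 fold change with both drugs, was at 14.5 ± 0.568 RPKM in KPT-330+CS and 40.9 ± 4.43 RPKM in DMSO.

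For 13 genes the annotation places an exon of another gene over part of the gene, and that other gene holds at least 10% as many reads. They were CHAF1A (UBXN6), CHAF1B (MORC3), DBF4 (SLC25A40), FEN1 (FADS2), GINS1 (NINL), GINS2 (GSE1), ORC4 (MBD5), POLD1 (ENSG00000142539), PRIM1 (NACA), RFC4 (EIF4A2), RFC5 (WSB2), RPA1 (SMYD4) and RPA3 (UMAD1). The library kit does not mark strand, so reads in shared stretches cannot be assigned, and the values of these 13 genes are uncertain to that extent.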

How the data were processed

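Reads came from poly(A) RNA of JEKO-1 cells, extracted with a kit made for fixed tissue and prepared with an unstranded Illumina kit, per the labels' protocols. Per the series design text, the authors aligned them to hg38 with STAR, assigned them to Ensembl 78 genes and used edgeR with TMM; the deposited values are whole-number counts per gene with a gene length. Which program counted reads, and with what strand setting, is not given in the sources used here.

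The counts were fitted here with edgeR 4.0.16 in R 4.3.3 (filterByExpr, TMM, robust quasi-likelihood F-test, two-sided). All 12 libraries were fitted together by group, which assumes a common spread in all groups. The groups differed in spread, with a biological coefficient of variation from 2.88% in KPT-330 to 15.5% in DMSO. P-values were adjusted by Benjamini-Hochberg over 19460 genes in each of 7 contrasts, and a change was called at 0.05 or less. The SE was derived from the log2 fold change and the root of its F statistic. CPM uses TMM-scaled library sizes, and RPKM the authors' gene length. The interaction is the KPT-330+CS minus KPT-330 change less the CS minus DMSO change. The fitting steps were tested on simulated data. The simulation gave all libraries of a gene the same spread and held no GC trend, so it does not cover these features of the data.

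The 22 alternatives were DESeq2 1.42.0, its size factors, library size alone, no filter, the replicate number as a block, GC corrections (lowess, span 0.3) over all libraries, within groups, or over all libraries with the block, the compared groups only, the libraries without DMSO replicate 3, CS replicate 1 and KPT-330+CS replicate 3, which have the lowest GC slopes of their groups, and each of the 12 libraries left out in turn. No pair of libraries was identical.

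The 52 genes, the 43 other replication genes, the motifs and the alternatives were chosen with earlier results of these data known. Values per library are given for 11 genes set in advance (ORC1, CDC6, CDT1, GMNN, MCM2, MCM10, CDC45, CDC25A, POLD1, PCNA and CHAF1A) and for the gene of each role with the largest called change with KPT-330, with both drugs or in the interaction, and RFC1 was added after its values were seen. Fold changes name up to 8 genes in each direction, and up to 4 of the other replication genes per contrast. Identifiers were matched to GENCODE 44 (56105 of 64253, all 52 genes among them). Promoters are from RefSeq (GRCh38.p14), using the first listed start of a gene; 44 of the 52 genes had an entry. Plots used matplotlib 3.10.9 (Python 3.11.15).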

Additional observations from a re-analysis of the deposited data

Results flagged for a closer look

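The effect of adding CS differed between cells with KPT-330 and cells without it in 34 of the 52 genes, by the test of that difference itself (the edgeR interaction term, adjusted p of 0.05 or less). All 34 values were negative, so that KPT-330+CS against KPT-330 was lower than CS against DMSO. On the log2 scale they were -0.38 for ORC1, -0.48 for ORC6, -0.51 for CDC6, -1.08 for CDT1 and -0.51 for GMNN among the licensing genes. In the CMG helicase they were -0.48 for MCM3, -0.58 for MCM4, -0.76 for MCM7, -1.21 for CDC45, -0.54 for GINS1, -0.53 for GINS2 and -0.29 for GINS4. In firing and helicase activation they were -0.63 for MCM10, -0.37 for CDC7, -0.49 for CDC25A, -1.54 for RECQL4 and -0.78 for TICRR. Polymerase and primase values were -0.62 for POLA1, -0.60 for POLA2, -0.51 for PRIM1, -0.68 for POLD3, -0.88 for POLE and -0.60 for POLE2. Clamp and loader values were -0.55 for PCNA, -0.60 for RFC2, -0.29 for RFC3, -0.31 for RFC4 and -0.34 for RFC5. The remaining values were -0.61 for FEN1, -0.94 for LIG1, -0.54 for DNA2, -0.62 for TIMELESS, -0.81 for CHAF1A and -0.68 for CHAF1B. The same test called 6.62% of all genes negative and 8.04% positive. After the GC correction over all libraries the same contrast was negative in 46 of the 52 genes. Among all 19460 genes tested, the number called negative also rose with that correction, from 1288 to 2921.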

How the results depend on the processing

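Most calls with both drugs held. Of the 45 genes called against DMSO, 35 kept their call in all 22 alternatives, as did 41 of 43 against KPT-330 and 37 of 44 against CS. In the interaction, 26 of 34 kept it in all 21 alternatives that apply, since the fit of the compared groups only has no interaction. With KPT-330 alone 12 of 28 kept their call in all 22, for CS against KPT-330 7 of 21, and with CS alone 1 of 7. With a library left out, the counts lay between 40 and 44 lower and 0 and 1 higher for both drugs against DMSO, 42 and 46 lower and 0 higher against KPT-330, and 37 and 43 lower and 1 and 2 higher against CS. They lay between 27 and 37 negative and 0 and 1 positive in the interaction, 19 and 22 lower and 2 and 11 higher with KPT-330, 1 and 13 lower and 0 higher with CS, and 3 and 11 lower and 10 and 15 higher for CS against KPT-330.

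Other counts that moved by over 1.5 times, for KPT-330, were 4 higher with DESeq2 size factors, 17 higher and 13 lower with library size alone, 5 higher without a filter, 16 higher with the GC correction over all libraries, 18 within groups, and 2 higher by DESeq2. For CS, they were 1 higher with library size alone, 2 higher and 15 lower with the GC correction over all libraries, 1 higher and 15 lower with that within groups, and 1 lower with the compared groups only. For both drugs against DMSO, higher genes numbered 0 with DESeq2 size factors, no filter or DESeq2, 4 with library size alone, 3 with the GC correction over all libraries and 2 with that within groups. For CS against KPT-330, lower genes numbered 5 with DESeq2 size factors, 14 with library size alone, 4 without a filter, 20 and 18 with the 2 GC corrections, 14 with the compared groups only and 4 by DESeq2. Against CS, higher genes in KPT-330+CS numbered 1 with DESeq2 size factors, no filter or DESeq2 and 4 with library size alone. The interaction was positive in 1 with the GC correction within groups.

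Same-numbered libraries were no more alike than others. For them, the correlation of deviations from group means lay between -0.384 and 0.401 (median -0.026). For other pairs it lay between -0.419 and 0.404 (median 0.015). The GC slope fell with replicate number in DMSO and KPT-330+CS and rose in CS, so these values cannot show that pairing was absent. With the replicate block, 4 genes were higher with KPT-330, 3 lower with CS and 0 higher with both drugs. With the replicate block and the GC correction together, 15 were higher with KPT-330, 2 higher and 11 lower with CS, 2 higher with both drugs and 19 lower for CS against KPT-330.

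Among genes called in either of the fits compared, these signs turned; uncalled values also turned in other genes and are not listed. With the GC correction over all libraries, KPT-330 values became 0.21 for ORC2, -0.31 for CDT1, 0.17 for PRIM2, 0.12 for RFC4 and 0.048 for DNA2, and CS against KPT-330 became -0.19 for ORC2, -0.20 for ORC3, -0.19 for ORC5, -0.16 for PRIM2 and -0.15 for RFC4. KPT-330+CS became 0.10 for ORC2 against DMSO, -0.12 for ORC2 and -0.13 for ORC4 against KPT-330, and -0.16 for RFC1 in the interaction. With the replicate block added, they were 0.21 for ORC2, -0.31 for CDT1, 0.18 for PRIM2, 0.12 for RFC4 and 0.048 for DNA2 with KPT-330, -0.19 for ORC2, -0.20 for ORC3, -0.19 for ORC5, -0.16 for PRIM2 and -0.15 for RFC4 for CS against KPT-330, -0.12 for ORC2 against KPT-330 and -0.16 for RFC1 in the interaction. ORC6 became 0.13 with both drugs under library size alone, which moves the median of all genes with KPT-330 against DMSO to 0.20. The cause was not tested. Every one of the 52 genes had at least 195 reads in each library.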
